A study of Mus musculus with 6 samples.

Results

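Autophagy is carried out by a core set of proteins, and the transcripts of 40 genes for them were followed in the mouse macrophage-like line RAW264.7. The genes were chosen by name, with earlier results of these data known. They cover the ULK initiation complex, the class III phosphatidylinositol 3-kinase complexes, the lipid-binding and lipid-moving factors and the conjugation enzymes. They also cover the ATG4 proteases, the ATG8 family, the cargo receptors and 3 factors of membrane expansion, fusion and tethering. All 40 had a row among the 23154 genes of the deposited table, and the rule that picks them uses no measured value. Of the 40, 39 reached a mean of 10 normalized reads and were tested. The exception was Optn, which encodes the cargo receptor optineurin.

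The study used 2 stable lines of these cells. In one, a pINDUCER20b construct makes HA-tagged NUR77, the nuclear receptor product of Nr4a1, when doxycycline is added. The control line has a GFP construct instead. Doxycycline (1 µg/mL) was added to both lines 24 hours after seeding and left on for 18 hours, and each of the 3 replicates per line was a separate dish. Each group is therefore 1 stable line, so that the transgene and any other difference between the lines cannot be told apart, and p-values rest on the spread among dishes of the same line. Cells kept without doxycycline were not analysed here.

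In macroautophagy, a cup of membrane grows around a portion of cytoplasm, closes into an autophagosome and fuses with a lysosome, where the content is broken down. The ULK kinase complex starts the process, a lipid kinase complex built around Beclin 1 marks the membrane with phosphatidylinositol 3-phosphate, and a ubiquitin-like conjugation system then attaches ATG8 proteins such as LC3 to the growing membrane. Cargo receptors bind ubiquitinated or otherwise marked cargo on one side and ATG8 proteins on the other. Macrophages also use parts of the conjugation machinery to attach LC3 to phagosomes. Transcript levels do not measure the flux through this pathway, since LC3 and p62 proteins are themselves consumed in it.

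The unit of level is the normalized read, the number of reads of a gene in every 10000000 that fell on genes, with means ± SD over 3 libraries per line. Depth ranged from 14350490 to 15929487 reads in the GFP libraries and from 11199468 to 14354453 in the NUR77 libraries. Nr4a1 had 170, 148 and 161 normalized reads in the GFP dishes and 288, 314 and 297 in the NUR77 dishes, a log2 fold change of 0.90 (SE 0.08, limma adjusted p = 5.5e-08). All 10 macrophage markers had a mean of 10 or more over the 6 libraries, and they went different ways. In the NUR77 line 6 were lower, 2 were higher and 2 (Spi1 and Ptprc) did not pass. Mean levels went from 26664 to 2566 for Lyz2, from 16580 to 1019 for Mpeg1 and from 14010 to 5136 for Cd68, and from 4224 to 9598 for Itgam. The sum of the 10, carried mostly by the first 3, was 77042 to 78549 in the GFP libraries and 29409 to 30548 in the NUR77 libraries. The summed level of 9 skeletal muscle genes, Tnni2 left out, was 198 in NUR77 replicate 1 and 39.2 to 48.1 in the other libraries. Tnni2 was set aside after its values were seen, and with it the sum was 380 to 430 in the GFP libraries and 107 to 295 in the NUR77 libraries. The 7 fibroblast genes summed to 17.6 to 22.3 in the GFP libraries and to 114, 43.2 and 29.4 in NUR77 replicates 1, 2 and 3, without overlap. Lum had means of 0 in the GFP control and 12.5 in the NUR77 line, Dcn 1.33 and 8.41, and Col1a1 3.31 and 6.99. Means of Col1a2, Col3a1 and Thy1 were also higher in the NUR77 line, but with overlapping lines, and Pdgfra was at 0 in both. Of 4 endothelial genes, Pecam1 had a mean of 1.07 in the GFP control and 27.9 in the NUR77 line, and the other 3 had few reads, with Kdr at 1.78 and 0.464, Cdh5 at 0.659 and 0.265 and Tek at 0.427 and 0. Of 5 lymphocyte genes, Cd3e, Cd3g and Ms4a1 were at 0, Cd8a had 1 read in all, and Cd79a had 11 reads in the GFP libraries and 3 in the NUR77 libraries. Of 5 epithelial genes Krt8, Cdh1 and Krt14 were at 0. The part of these differences in the values below was not tested. In bulk RNA, fewer cells of a type and less RNA per cell cannot be told apart.

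Of the 39 tested autophagy genes, 10 rose in the NUR77 line, 11 fell and 18 did not pass the test, an adjusted p under 0.05. Changed genes made up 53.8% of the 39, beside 66.7% of all 11201 tested genes. Of all tested genes 38.4% were higher and 28.3% were lower in the NUR77 line. The changes of the autophagy genes ran from a log2 fold change of -1.04 to 0.53. Their median absolute log2 fold change was 0.19, beside 0.31 over all tested genes, and their median was -0.001, beside 0.06. A change of 1.5-fold or more was reached by 4 of the 39, Atg7, Atg16l1, Sqstm1 and Gabarap, and all 4 fell. Of all tested genes, 26.6% changed by that much, with 14.7% higher and 11.9% lower. The values of the 2 lines did not overlap for 22 of the 39 genes and for 70.6% of all tested genes.

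The direction of small changes depended on how libraries were scaled. With TMM scaling, a robust alternative to equal totals that moved the median log2 fold change of all genes by -0.07, 8 of the 39 rose and 14 fell, and over all genes 3612 rose and 3835 fell, in place of 4305 and 3170. The calls that left the risers were Atg4d and Atg5, and those that joined the fallers were Becn1, Epg5 and Pik3c3. Without NUR77 replicate 1, 9 rose and 10 fell, with Atg5 and Stx17 no longer past the threshold. That library had the highest fibroblast sum and the highest muscle sum without Tnni2.

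**Figure D1:**
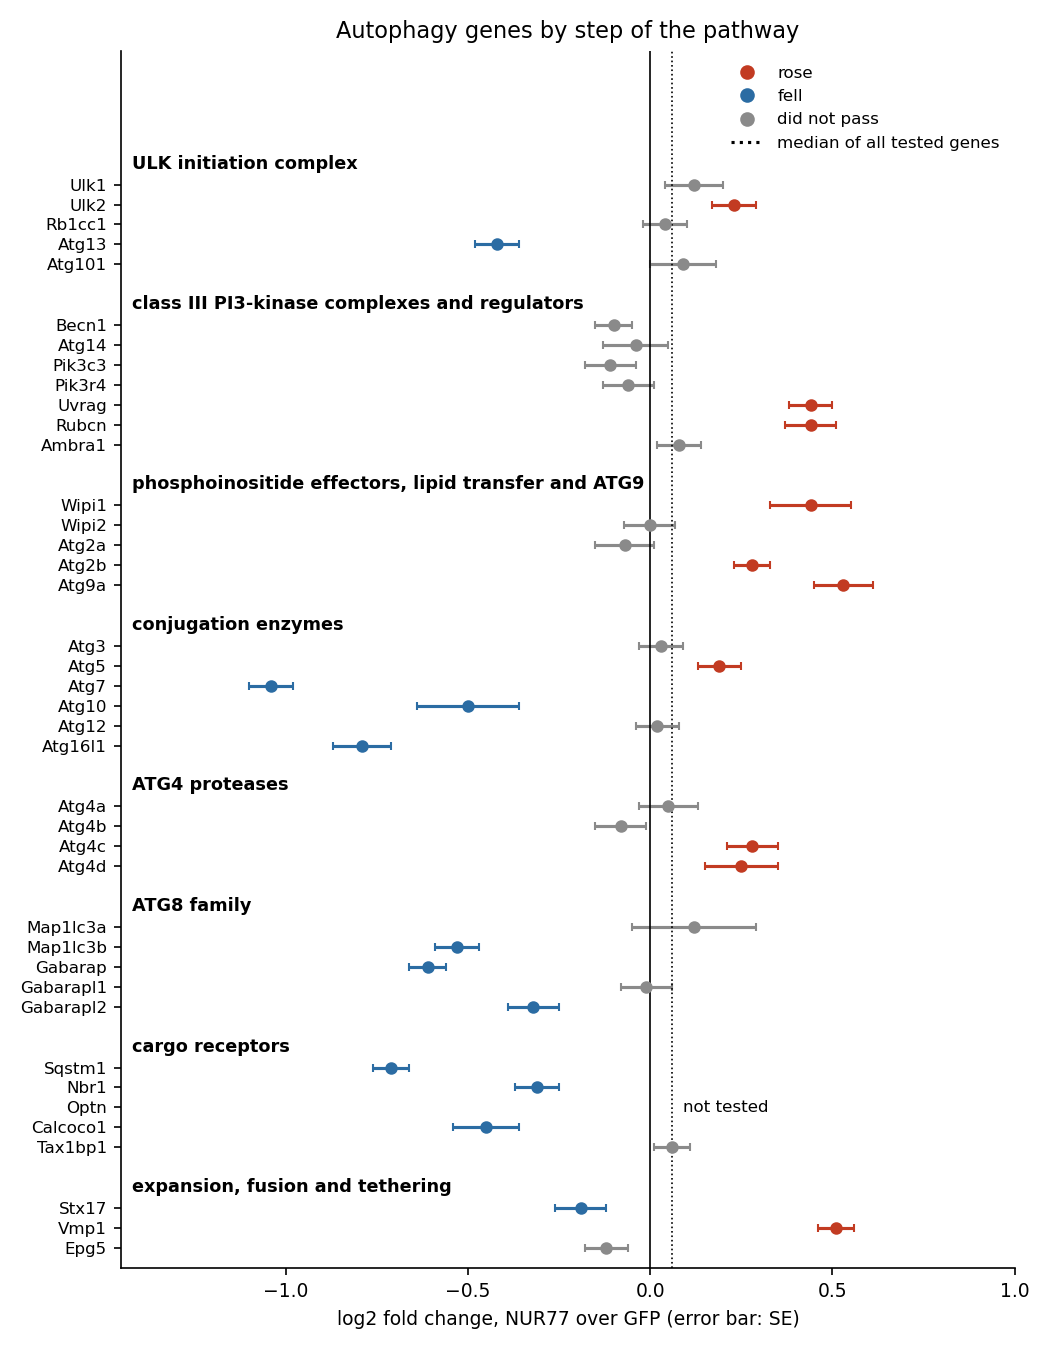
Log2 fold change of NUR77 over GFP for each autophagy gene, grouped by step of the pathway, with the standard error of the limma fit as the bar. Red points rose, blue points fell and grey points did not pass the test, and the dotted line is the median of all tested genes, 0.06. The 3 blue ATG8 points and the 3 blue cargo receptor points lie on the left, and the farthest point to the left is Atg7 at -1.04.

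The DNA just upstream of a gene's start is shown for 5 genes that stand for the patterns below. These are Sqstm1 and Map1lc3b, a cargo receptor and an ATG8 gene that fell, Uvrag and Vmp1, which rose, and Atg3, which did not pass the test and held a CLEAR motif. Sequences are from RefSeq (GRCm38.p6), run 5′ to 3′ on the gene's strand and leave out annotated exons. Capitals mark matches on either strand to the motifs searched.
Sqstm1, chr11:50210828-50210889, minus strand: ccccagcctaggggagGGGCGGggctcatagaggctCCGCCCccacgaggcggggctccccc
Map1lc3b, chr8:121590188-121590360, plus strand: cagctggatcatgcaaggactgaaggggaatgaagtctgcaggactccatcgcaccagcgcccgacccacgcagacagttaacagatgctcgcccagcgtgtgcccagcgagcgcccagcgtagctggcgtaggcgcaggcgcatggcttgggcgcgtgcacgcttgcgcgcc
Uvrag, chr7:99141145-99141394, minus strand: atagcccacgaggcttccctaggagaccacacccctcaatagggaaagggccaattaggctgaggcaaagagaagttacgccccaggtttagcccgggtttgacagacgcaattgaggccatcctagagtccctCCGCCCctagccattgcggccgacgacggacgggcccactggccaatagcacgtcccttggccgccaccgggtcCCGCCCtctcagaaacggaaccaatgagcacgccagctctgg
Vmp1, chr11:86683837-86683984, minus strand: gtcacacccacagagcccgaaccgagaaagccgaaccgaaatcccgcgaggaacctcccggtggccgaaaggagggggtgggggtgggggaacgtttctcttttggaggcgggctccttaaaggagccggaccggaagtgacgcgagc
Atg3, chr16:45158707-45158784, plus strand: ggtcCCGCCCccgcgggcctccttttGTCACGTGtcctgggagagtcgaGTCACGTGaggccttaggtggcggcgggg

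Of the 40 genes, 33 had an entry in the RefSeq table, and 31 of these had a start within 100 bases of an annotated GENCODE start. In the 250 bases before those 31 starts, 4 motifs were searched on both strands. The NBRE, AAAGGTCA, the element that NR4A receptors bind as monomers, was in 0 of 31 windows and in 1.28% of 18297 windows of all genes. The CLEAR core, GTCACGTG, part of the element bound by the lysosomal and autophagy regulator TFEB, was in 1 of 31 windows and in 2.33% of all. That window was the one of Atg3, with matches beginning 96 and 73 bases before the RefSeq start. The E-box CACGTG, which lies inside the CLEAR core, was in 3 of 31 windows, those of Atg3, Atg5 and Rubcn, and in 6.55% of all. The GC box, GGGCGG, was in 20 of 31 windows and in 41.0% of all. Among the printed stretches, those of Sqstm1, Uvrag and Atg3 carry GC boxes, and those of Map1lc3b and Vmp1 carry none of the 4 motifs. The full window of Map1lc3b does hold a GC box, 37 bases before the RefSeq start, in annotated exon that is not printed. These counts describe letters in a window and say nothing about binding.

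In the ULK initiation complex, which receives signals from mTORC1 and AMPK, 1 of 5 genes rose, 1 fell and 3 did not pass. The changed share was smaller than the 66.7% of all tested genes (38.4% higher and 28.3% lower). Atg13, the adaptor that links the kinase to its scaffold, fell from 844 ± 44.7 to 630 ± 40.1 normalized reads (log2 change -0.42 with SE 0.06, adjusted p = 1.5e-05). Its lowest GFP library was at 805 and its highest NUR77 library at 675. Ulk2, a kinase of the complex, rose from 473 ± 6.56 to 555 ± 15.9 (0.23 with SE 0.06, adjusted p = 0.0026). Of the 24 tested genes nearest to Ulk2, 17 were higher in the NUR77 line, with a median log2 fold change of 0.40, beside 0.06 over all tested genes. Of the 24 nearest to Atg101, which did not pass, 18 were higher, with a median of 0.42. The other kinase, Ulk1, was at 294 ± 19.4 and 320 ± 31.7 (adjusted p = 0.22). The ratio of Ulk2 to Ulk1 reads overlapped, at 1.54 to 1.72 in the GFP libraries and 1.53 to 1.94 in the NUR77 libraries. The scaffold Rb1cc1, also called FIP200, was at 652 ± 40.3 and 672 ± 38.2, and Atg101, a partner of ATG13, at 174 ± 8.83 and 186 ± 10.6. The lines overlapped for all 3 genes that did not pass. They did not overlap for the other 2 of the 5, beside 70.6% of all tested genes without overlap.

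The class III phosphatidylinositol 3-kinase works in a pair of forms that share a core. The core genes did not pass the test. Pik3c3, the catalytic subunit VPS34, was at 490 ± 30.6 normalized reads in the GFP control and 453 ± 17.4 in the NUR77 line. Pik3r4, the regulatory subunit VPS15, was at 451 ± 11 and 433 ± 28.2. Becn1, or Beclin 1, was at 1174 ± 28 and 1097 ± 41.2 (log2 fold change -0.10, adjusted p = 0.11), with no overlap between the lines. Under TMM scaling Becn1 and Pik3c3 passed as lower, at -0.17 (adjusted p = 0.0092) and -0.19 (adjusted p = 0.021). Both also passed as lower with upper-quartile and median-of-ratios scaling and with limma-voom.

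The subunits that set the form of the complex had different calls. Uvrag, which defines the endosomal form, had 962, 1105 and 1044 normalized reads in the GFP dishes and 1339, 1373 and 1496 in the NUR77 dishes. It rose by a log2 fold change of 0.44 (standard error 0.06, adjusted p = 9.3e-06). Atg14, which directs the complex to autophagosome formation, was at 175 ± 8.15 and 170 ± 14.9 (-0.04, adjusted p = 0.69). The ratio of Uvrag to Atg14 reads within a library, which no library scaling can change, was 5.25 to 6.62 in the GFP control and 7.35 to 8.96 in the NUR77 line.

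Rubcn encodes Rubicon, which binds the UVRAG form, restrains autophagosome maturation and is needed for LC3 attachment to phagosomes. It rose from 469 ± 13.2 to 638 ± 65.1 normalized reads (log2 change 0.44 with SE 0.07, adjusted p = 4.1e-05). Its 3 NUR77 libraries, at 577, 631 and 706, all lay above the highest GFP library at 484. Ambra1, which links Beclin 1 to ubiquitin ligases and the ULK complex, did not pass, at 804 ± 28.7 and 852 ± 25.1 (adjusted p = 0.19).

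Among the genes that act on or supply the growing membrane, 3 of 5 rose and 0 fell. The changed share was 60.0%, beside 66.7% of all tested genes (38.4% higher and 28.3% lower). Atg9a, a lipid scramblase on vesicles that seed the membrane, had 360, 360 and 329 normalized reads in the GFP dishes and 446, 532 and 546 in the NUR77 dishes. Its log2 fold change of 0.53 (standard error 0.08, adjusted p = 1.5e-05) was the highest among the 39 tested genes. The predicted gene Gm29253 shares 31.8% of the exon bases of Atg9a on the same strand and was at a mean of 0.218 in the GFP control and 0 in the NUR77 line.

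Wipi1, which binds phosphatidylinositol 3-phosphate, rose from 97.2 ± 9.75 to 132 ± 4.36 (log2 change 0.44 with SE 0.11, adjusted p = 0.0019). Wipi2, its relative that recruits ATG16L1, was at 1027 ± 29.2 and 1030 ± 116 (adjusted p = 0.99). The lipid transfer proteins ATG2A and ATG2B also differed in their calls. Atg2b rose from 1806 ± 27.0 to 2202 ± 112 (0.28 with SE 0.05, adjusted p = 1.2e-04), and Atg2a was at 598 ± 39.2 and 572 ± 59.5 (adjusted p = 0.46). Whether the paralogs differed from each other in their change was not tested.

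The conjugation enzymes held the largest falls among the tested autophagy genes. Atg7 encodes the E1-like enzyme that activates both ATG12 and the ATG8 proteins (ENSMUSG00000030314, chr6:114643097-114860614, plus strand, GRCm38). It had 1183, 1195 and 1172 normalized reads in the GFP dishes and 551, 570 and 609 in the NUR77 dishes. The NUR77 libraries lay far below the GFP libraries, a 2.05-fold lower level (log2 change -1.04 with SE 0.06, adjusted p = 4.6e-11). The 24 tested genes nearest to Atg7 had a median log2 fold change of -0.08, with 10 higher in the NUR77 line.

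Atg16l1 encodes the partner that places the ATG12-ATG5 conjugate on the membrane (ENSMUSG00000026289, chr1:87755870-87792428, plus strand, GRCm38). It had 672, 583 and 611 normalized reads in the GFP dishes and 322, 362 and 399 in the NUR77 dishes. All 3 NUR77 libraries lay below all 3 GFP libraries, and the level was 1.73-fold lower (log2 change -0.79 with SE 0.08, adjusted p = 1.8e-07). Atg10, the E2-like enzyme for ATG12, had the lowest level per kilobase of exon in this group and fell from 75.3 ± 9.44 to 52.7 ± 3.98 (-0.50 with SE 0.14, adjusted p = 0.0049).

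No other conjugation gene passed as lower. Atg3, the E2-like enzyme for ATG8 proteins, was at 891 ± 29.8 and 911 ± 67.4 normalized reads (adjusted p = 0.68), and Atg12, the ubiquitin-like protein itself, at 560 ± 19.9 and 567 ± 5.92 (adjusted p = 0.80). Atg5, the acceptor of ATG12, rose from 392 ± 6.58 to 446 ± 19.6 (log2 change 0.19 with SE 0.06, adjusted p = 0.017). That call was lost under TMM scaling, at 0.11 (adjusted p = 0.14), and when GFP replicate 3 or NUR77 replicate 1 was left out (adjusted p = 0.066 and 0.054). It was also lost with upper-quartile and median-of-ratios scaling and with limma-voom. Ratios within a library restate the unequal change without any scaling and are not a separate test. The ratio of Atg7 to Atg3 reads was 1.33 ± 0.0313 in the GFP control and 0.636 ± 0.0741 in the NUR77 line, and that of Atg16l1 to Atg5 was 1.59 ± 0.129 and 0.812 ± 0.12.

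The ATG4 proteases trim newly made ATG8 proteins and release them from membranes. Of 4 genes, 2 rose and 0 fell, a smaller changed share than the 66.7% of all tested genes (38.4% higher and 28.3% lower). Atg4c rose from 364 ± 20.8 to 442 ± 6.33 normalized reads (log2 change 0.28 with SE 0.07, adjusted p = 0.0013). Atg4d rose from 169 ± 13.7 to 202 ± 22.1 (0.25 with SE 0.10, adjusted p = 0.033), but its lines overlapped, with GFP libraries at 175, 153 and 178 and NUR77 libraries at 177, 211 and 218. The Atg4d call was lost under TMM scaling, at 0.18, and with GFP replicate 2 or either of NUR77 replicates 2 and 3 left out. It was also lost with upper-quartile and median-of-ratios scaling, with limma-voom and with limma without its trend and robust moderation. Atg4b, the main protease for LC3, was at 482 ± 44.3 and 454 ± 8.47 (adjusted p = 0.32), and Atg4a at 278 ± 12.0 and 288 ± 22.6 (adjusted p = 0.61). The annotated copy Atg4a-ps had 0 reads in every library.

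ATG8 proteins, the LC3 and GABARAP proteins, are the tags that end up on the autophagosome membrane. Of the 5 genes, 3 fell and 0 rose, and the median log2 fold change was -0.32. Changed genes were 60.0% of the family, beside 66.7% of all tested genes (38.4% higher and 28.3% lower). Gabarap (ENSMUSG00000018567, chr11:69991143-69994951, plus strand, GRCm38) had 2400, 2315 and 2353 normalized reads in the GFP dishes and 1516, 1584 and 1520 in the NUR77 dishes. Both sets of values were tight and far apart, with a 1.53-fold lower level in the NUR77 line (log2 change -0.61 with SE 0.05, adjusted p = 7.6e-09).

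Map1lc3b encodes LC3B, the usual marker of autophagosomes (ENSMUSG00000031812, chr8:121590361-121598760, plus strand, GRCm38). It had 884, 804 and 837 normalized reads in the GFP dishes and 590, 564 and 589 in the NUR77 dishes. The lines did not overlap, and the level was 1.45-fold lower (log2 change -0.53 with SE 0.06, adjusted p = 4.1e-07). Gabarapl2, also called GATE-16, had 493, 433 and 462 in the GFP dishes and 392, 376 and 345 in the NUR77 dishes. It fell by 0.32 on the log2 scale (standard error 0.07, adjusted p = 9.7e-04), while 20 of its 24 nearest tested genes were higher in the NUR77 line.

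Gabarapl1 and Map1lc3a did not pass. Gabarapl1 had 700, 597 and 625 normalized reads in the GFP dishes and 679, 626 and 605 in the NUR77 dishes, with the lines overlapping (log2 change -0.01 with SE 0.07, adjusted p = 0.92). Map1lc3a, which encodes LC3A, had the lowest level per kilobase of exon in the family. It had 58.5, 38.3 and 49.0 in the GFP dishes and 46.4, 53.6 and 56.5 in the NUR77 dishes, also overlapping (0.12 with SE 0.17, adjusted p = 0.56).

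**Figure D2:**
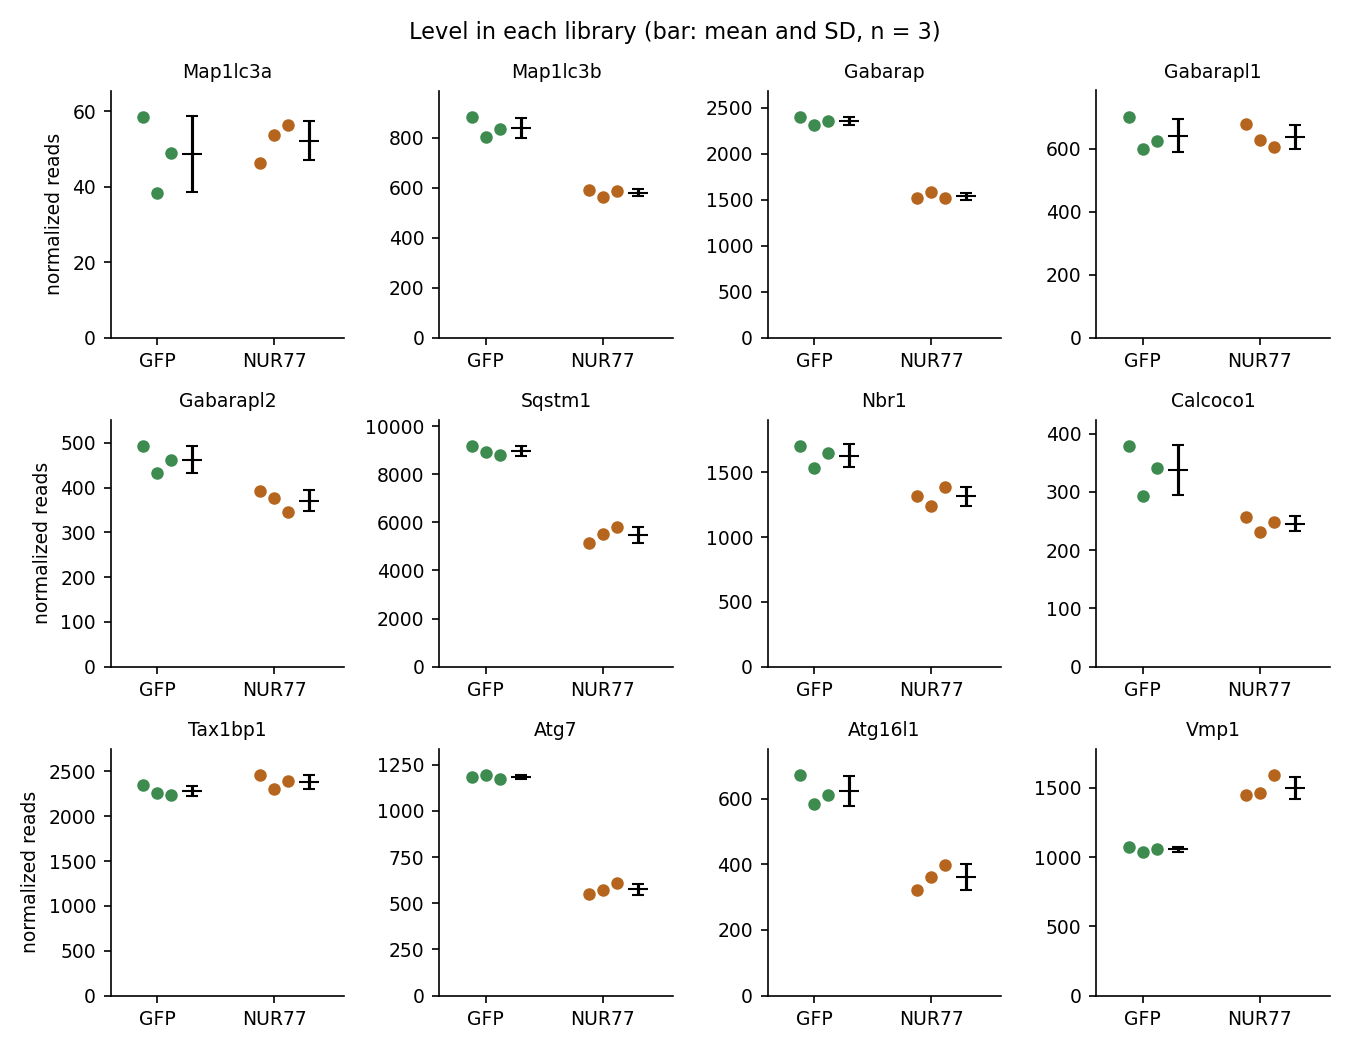
Normalized reads in each library, on axes that start at 0, for the ATG8 genes, the 4 tested cargo receptors, Atg7, Atg16l1 and Vmp1. Points are the 3 GFP and 3 NUR77 libraries and bars are the mean and SD. The lines are apart for Gabarap (means 2356 and 1540) and Atg7 (1183 and 576) and overlap for Gabarapl1, Map1lc3a and Tax1bp1.

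Per kilobase of exon, the 5 ATG8 genes summed to 1948 ± 75.8 normalized reads in the GFP control and 1432 ± 29.0 in the NUR77 line. The lowest GFP library, at 1877, lay above the highest NUR77 library, at 1452. Gabarap made up 65.6% ± 1.4 of that sum in the GFP control and 58.3% ± 1.3 in the NUR77 line, and Gabarapl1 16.3% ± 0.72 and 22.1% ± 1.1. The share of Map1lc3b was 5.75% ± 0.053 and 5.40% ± 0.22, that of Gabarapl2 10.2% ± 0.27 and 11.1% ± 0.52, and that of Map1lc3a 2.1% ± 0.36 and 3.09% ± 0.35. The shares depend on the length used, since the annotated exons of Map1lc3b span 7517 bases and its principal transcript 2532. With principal transcript lengths Map1lc3b made up 12.1% and 11.6%, Gabarap 63.5% and 57.4%, and Gabarapl1 12.8% and 17.6%, so that the direction for each of these genes was the same under both lengths.

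Cargo receptors hand cargo to the ATG8 proteins. Of the 4 tested genes, 3 fell and 0 rose, and the median log2 fold change was -0.38. This made 75.0% changed, beside 66.7% of all tested genes (38.4% higher and 28.3% lower). Sqstm1 encodes p62, which binds ubiquitin chains and gathers cargo into condensates (ENSMUSG00000015837, chr11:50199366-50210827, minus strand, GRCm38). It had 9179, 8935 and 8792 normalized reads in the GFP dishes and 5146, 5499 and 5811 in the NUR77 dishes. The NUR77 libraries all lay below the GFP libraries, with a 1.64-fold lower level (log2 change -0.71 with SE 0.05, adjusted p = 2.1e-09). Mrnip, on the opposite strand, overlaps 17.3% of the exon bases of Sqstm1 and was at 86.0 in the GFP control and 115 in the NUR77 line.

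Nbr1, which works together with p62, had 1704, 1534 and 1650 normalized reads in the GFP dishes and 1318, 1237 and 1388 in the NUR77 dishes. It fell without overlap by 0.31 on the log2 scale (standard error 0.06, adjusted p = 1.7e-04). Calcoco1, a receptor for endoplasmic reticulum and Golgi membrane, had 379, 293 and 341 in the GFP dishes and 257, 231 and 249 in the NUR77 dishes. It fell by 0.45 (standard error 0.09, adjusted p = 3.3e-04), with GFP replicate 2 the library nearest to the NUR77 line.

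Tax1bp1, a ubiquitin-binding receptor that also limits NF-kappaB signalling, had 2342, 2263 and 2233 normalized reads in the GFP dishes and 2459, 2301 and 2387 in the NUR77 dishes. The lines overlapped and the gene did not pass (log2 change 0.06 with SE 0.05, adjusted p = 0.26). Optn had 2 reads over the 3 GFP libraries and 1 over the 3 NUR77 libraries, at 0, 1.26 and 0 and at 0, 0 and 0.796 normalized reads. No difference can be read from so few reads, and no fold change is given.

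Per kilobase of exon, the 5 receptors summed to 3284, 3164 and 3143 normalized reads in the GFP dishes and to 2016, 2089 and 2216 in the NUR77 dishes, again without overlap. Sqstm1 made up 83.6% ± 0.48 and 77.5% ± 1.3 of the sum, and Tax1bp1 7.14% ± 0.025 and 11.3% ± 0.76. With principal transcript lengths these shares were 79.2% and 71.2% for Sqstm1 and 12.5% and 19.2% for Tax1bp1. The ratio of Sqstm1 to Tax1bp1 reads was 3.92 to 3.95 in the GFP libraries and 2.09 to 2.43 in the NUR77 libraries. This ratio, too, restates the values of both genes and is not a separate test.

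The 3 genes of membrane expansion, fusion and tethering went different ways. Vmp1, an endoplasmic reticulum scramblase needed for the membrane to expand, had 1075, 1035 and 1058 normalized reads in the GFP dishes and 1452, 1463 and 1594 in the NUR77 dishes. It rose without overlap by a log2 fold change of 0.51 (standard error 0.05, adjusted p = 3.2e-07). The exons of Vmp1 contain the microRNA gene Mir21a, whose precursor reads cannot be told apart from Vmp1 reads here.

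Stx17, the SNARE that drives fusion with the lysosome, fell from 390 ± 21.1 to 342 ± 12.8 normalized reads (log2 change -0.19 with SE 0.07, adjusted p = 0.024). Its call was lost when GFP replicate 1 (adjusted p = 0.10), GFP replicate 3 (0.075), NUR77 replicate 1 (0.057) or NUR77 replicate 3 (0.051) was left out. Epg5, a tether for fusion, did not pass, at 893 ± 18.6 and 822 ± 53.1 (-0.12, adjusted p = 0.079), without overlap of the lines. Epg5 passed as lower under TMM scaling, at -0.19 (adjusted p = 0.0069), and without NUR77 replicate 3, at -0.17 (adjusted p = 0.021).

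Ordered by level per kilobase of exon, Sqstm1 and Gabarap led in both lines. The order depends on the length used. The annotated exons of Tax1bp1 span 9991 bases and its principal transcript 3285, beside 2013 and 1820 for Gabarapl1. No order by principal transcript length was made, so ranks below hold for annotated exon length only. In the GFP line they stood at 2672 ± 58.2 and 1278 ± 23 normalized reads per kilobase, followed by Gabarapl1 at 318 ± 26.3, Atg3 at 283 ± 9.46 and Vmp1 at 273 ± 5.29. The values of Atg3 and Vmp1 overlapped. In the NUR77 line Sqstm1 stood at 1634 ± 99.2 and Gabarap at 835 ± 20.8, and Vmp1 followed at 389 ± 20.5, above Gabarapl1 at 316 ± 18.9. The lowest tested genes in the GFP line were Wipi1 at 22 ± 2.21 and Atg4d at 23.2 ± 1.88, which overlapped. In the NUR77 line Atg4d, at 27.8 ± 3.04, Wipi1, at 29.9 ± 0.988, and Atg10, at 30.7 ± 2.32, were the lowest, and neighbours in that order overlapped.

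**Figure D3:**
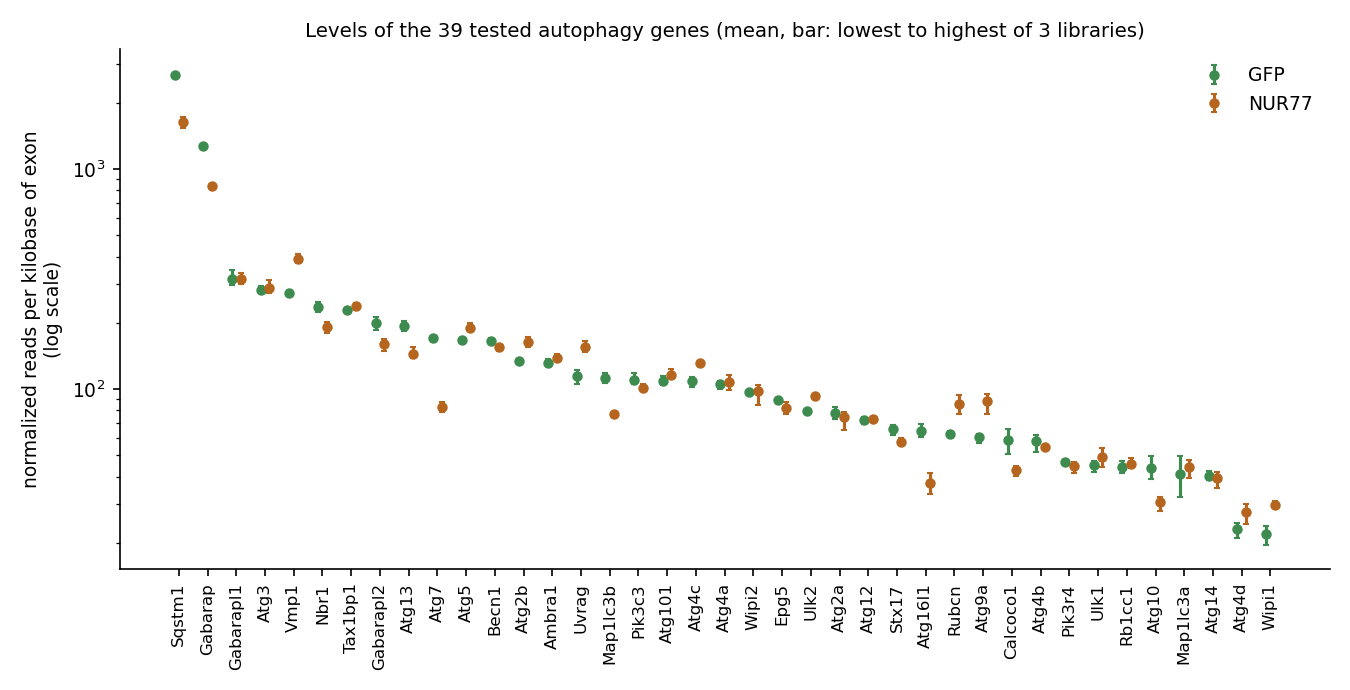
Normalized reads per kilobase of exon, on a log axis, for the 39 tested genes in the order of their GFP level. Points are line means and bars run from the lowest to the highest library. Sqstm1 (2672 in GFP, 1634 in NUR77) and Gabarap (1278 and 835) stand above the rest in both lines. The order rests on annotated exon length and may differ with principal transcript lengths.

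Genes around the core machinery were taken from 4 further lists with 61 genes, of which 58 were tested. In all, 17 rose, 26 fell and 15 did not pass. The changed genes were 74.1% of the 58, beside 66.7% of all tested genes (38.4% higher and 28.3% lower). The list of autophagosome tethering and fusion with the lysosome had the lowest median of the 4. Of its 13 tested genes, 1 rose, 10 fell and 2 did not pass, so that 84.6% changed. The median log2 fold change was -0.38, beside 0.06 over all tested genes. Lamp1, an abundant lysosomal membrane protein, fell from 13596 ± 394 to 6940 ± 148 normalized reads (-0.97 with SE 0.05, adjusted p = 7.5e-12). Plekhm1, an adaptor that binds ATG8 proteins and RAB7, fell from 2081 ± 45.8 to 1184 ± 95.2 (-0.82 with SE 0.06, adjusted p = 2.3e-09). Vps18, a subunit of the HOPS tether, fell from 983 ± 15.3 to 622 ± 16.6 (-0.66, adjusted p = 1.1e-08). Vamp8, the lysosomal SNARE that pairs with STX17, fell from 530 ± 20.6 to 341 ± 11.3 (-0.64, adjusted p = 1.7e-07). The remaining SNARE of that complex, Snap29, was at 550 ± 31.9 and 564 ± 41.2 (adjusted p = 0.66). Vps11, another HOPS subunit, was at 1334 ± 34.5 and 1278 ± 37.3 (adjusted p = 0.29), but TMM scaling made it pass as lower, at -0.14. So did upper-quartile scaling, at -0.12, and limma-voom, at -0.14, but not median-of-ratios scaling.

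Upstream nutrient sensing showed no common direction. Of 17 tested genes of mTORC1, AMPK and their regulators, 6 rose, 6 fell and 5 did not pass, with a median log2 fold change of 0.05. The changed share, 70.6%, was near the 66.7% of all tested genes. Sesn1, a sestrin that restrains mTORC1, fell from 500 ± 7.93 to 198 ± 7.98 normalized reads (-1.33 with SE 0.07, adjusted p = 3.0e-11). Ddit4, or REDD1, a stress-induced inhibitor of mTORC1, rose from 245 ± 18.8 to 522 ± 84.1 (1.08 with SE 0.10, adjusted p = 1.3e-07). Deptor, an inhibitory mTOR-binding protein, fell from 393 ± 12.6 to 236 ± 21.9 (-0.74, adjusted p = 3.3e-07), and Akt1s1, or PRAS40, from 281 ± 12.2 to 189 ± 27.8 (-0.58, adjusted p = 7.4e-05). Rheb, the GTPase that activates mTORC1, was at 871 ± 36.4 and 902 ± 28.2 (adjusted p = 0.44), and Sesn2 at 785 ± 55.4 and 808 ± 43.8 (adjusted p = 0.56). Prkaa2 and Sesn3 were too low to test.

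Of 16 autophagy factors outside the core list, 6 rose, 5 fell and 5 did not pass, with a median log2 fold change of 0.07. Here 68.8% changed, near the 66.7% of all tested genes. Tecpr1, a factor of lysosomal membranes that binds the ATG12-ATG5 conjugate, had 3235, 2856 and 2876 normalized reads in the GFP dishes and 696, 738 and 823 in the NUR77 dishes. Its level was 3.97-fold lower (-1.99 with SE 0.07, adjusted p = 1.1e-13). Wdfy3, or ALFY, a scaffold for protein aggregates, rose from 2058 ± 57.5 to 3935 ± 616 (0.92 with SE 0.09, adjusted p = 7.2e-06). Zfyve1, or DFCP1, which binds phosphatidylinositol 3-phosphate, fell from 495 ± 31.3 to 350 ± 18.8 (-0.50, adjusted p = 8.6e-06), and Wdr45, a WIPI relative, from 177 ± 5.95 to 128 ± 7.42 (-0.47, adjusted p = 2.9e-04). Wdr45b (560 ± 17.6 and 553 ± 5.75) and the VPS34 complex subunit Nrbf2 (208 ± 13.3 and 234 ± 13.8) did not pass.

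Of 12 selective autophagy receptors and their partners outside the core list, 4 rose, 5 fell and 3 did not pass. Their median log2 fold change was 0.10, and 75.0% changed, beside 66.7% of all tested genes. Tnip1, a ubiquitin-binding brake on NF-kappaB, had 599, 632 and 608 normalized reads in the GFP dishes and 2689, 2810 and 2652 in the NUR77 dishes. Its rise of 4.43-fold (2.15 with SE 0.05, adjusted p = 1.5e-15) was the highest in the 4 lists. Stbd1, which binds glycogen, rose from 18.0 ± 1.98 to 41.3 ± 8.31 (1.14, adjusted p = 1.1e-04). Wdr81, a partner of p62 in aggregate clearance, fell from 952 ± 52.4 to 460 ± 51.7 (-1.05 with SE 0.08, adjusted p = 2.7e-09). The mitophagy receptor Bnip3 had 2069, 1206 and 2006 in the GFP dishes and 3108, 2830 and 3844 in the NUR77 dishes (0.92 with SE 0.27, adjusted p = 0.037). That call was lost with no filter on low genes (adjusted p = 0.055). It was also lost with GFP replicate 3 or any 1 of the NUR77 libraries left out, at log2 fold changes of 0.79 to 1.03. Its relative Bnip3l was at 1006 ± 105 and 1153 ± 133 (adjusted p = 0.074), and passed as higher with GFP replicate 1 left out, at 0.25 (adjusted p = 0.047), or NUR77 replicate 2, at 0.28 (adjusted p = 0.0099). Retreg1, a receptor for endoplasmic reticulum, was at 1368 ± 25.8 and 1378 ± 87.6 (adjusted p = 0.90).

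**Figure D4:**
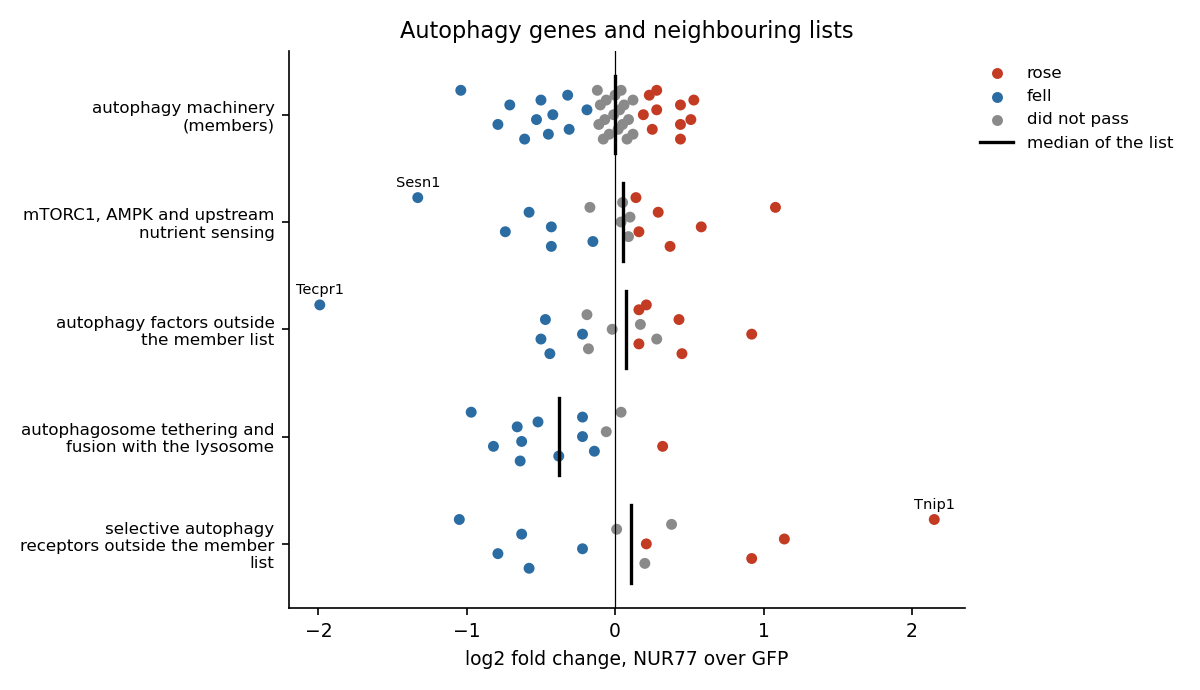
Log2 fold change of NUR77 over GFP for every tested gene of the autophagy list and of the 4 further lists, with 1 point per gene, red where it rose, blue where it fell and grey where it did not pass. Vertical black bars are list medians. The tethering and fusion list has the lowest median, -0.38, and the farthest points are Tecpr1 at -1.99 and Tnip1 at 2.15.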

How the data were processed

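Poly(A) RNA was sequenced from 3 GFP and 3 NUR77 cultures with a strand-specific kit, per the labels' protocols. The authors deposited log2 values for 23154 genes, made with TopHat2 2.1, HTSeq and DESeq2 on mm10, per the submitters' processing notes. The sources used here do not give how each tool was set, strand included, so reads of genes that overlap on opposite strands may not be separated. Such overlaps cover 43.9% of the exon bases of Becn1 (by Cntd1), 28.3% of Gabarapl1 (1700101I11Rik) and 19.3% of Atg4d (Kri1). From the values, each is the log2 of normalized reads plus 1, with 10000000 normalized reads per library.

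Every gene whose mean over the 6 libraries reached 10 normalized reads was fitted with limma 3.58.1 (R 4.3.3) on log2(normalized reads + 1), which understates the change of low genes, with a mean-variance trend and robust moderation. Benjamini-Hochberg adjustment covered all 11201 tested genes, the threshold was 0.05, and every adjusted p is from this fit unless another setting is named. The script was tested on simulated data. Names and coordinates are from the GENCODE annotation of GRCm38. Libraries of a line differed by more than sampling noise, so none was counted as a duplicate.

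The members, the further lists and the tests were chosen with earlier results of these data known. Every autophagy gene is accounted for. Values in every library are given for those changed by 1.5-fold or more and for the ATG8 genes and cargo receptors, and for Uvrag, Atg9a, Atg4d, Vmp1, Tecpr1, Tnip1 and Bnip3, which were added after their values were seen. From each further list, up to 4 changed genes with the largest change and up to 2 that did not pass are named. Values of neighbouring genes are given for Ulk2, Atg101, Atg7 and Gabarapl2 only. The alternatives were other pseudocounts, filters and scalings, limma without its trend, the leaving out of single libraries, a replicate block, limma-voom and principal transcript lengths. One marker gene is not reported here.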

Additional observations from a re-analysis of the deposited data

How the results depend on the processing

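Over 16 alternatives, 8 of the 10 autophagy genes that rose and 10 of the 11 that fell kept their call in each, the exceptions being Atg4d, Atg5 and Stx17, and 5 of the 18 that did not pass kept direction and side in each. The median log2 fold change of the 39 tested autophagy genes, -0.001, was -0.07 with TMM, -0.06 with upper-quartile and -0.06 with median-of-ratios scaling and -0.07 with limma-voom, and ran from -0.04 to 0.02 with 1 library left out. Near-zero values changed sign when rescaled, since the scaling shifts all genes. With TMM they were -0.03 for Rb1cc1, -0.04 for Atg3, -0.06 for Atg12, -0.03 for Atg4a, -0.01 for Tax1bp1, -0.03 for Sesn2, -0.02 for Rheb, -0.04 for Snap29 and -0.07 for Retreg1. With limma-voom, the same genes were at -0.03, -0.05, -0.06, -0.03, -0.01, -0.03, -0.02, -0.04 and -0.06. With upper-quartile scaling, Rb1cc1 was at -0.02, Atg3 at -0.03, Atg12 at -0.04, Atg4a at -0.01, Sesn2 at -0.02, Rheb at -0.01, Snap29 at -0.03 and Retreg1 at -0.05. With median-of-ratios scaling they were at -0.01, -0.03, -0.04, -0.01, -0.01, -0.01, -0.02 and -0.05.

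With 1 library left out, sign changes occurred for Rb1cc1 (-0.0017 to 0.09), Atg14 (-0.10 to 0.03), Wipi2 (-0.05 to 0.10), Atg2a (-0.11 to 0.02), Atg3 (-0.03 to 0.07), Atg12 (-0.01 to 0.04), Atg4a (-0.0028 to 0.11), Map1lc3a (-0.04 to 0.26), Gabarapl1 (-0.06 to 0.06), Snap29 (-0.02 to 0.09) and Retreg1 (-0.04 to 0.05). None of these genes passed the test with all libraries. Over those settings 9 to 10 autophagy genes rose and 10 to 11 fell. Deviations of same-numbered libraries correlated at 0.002, 0.114 and 0.045, and those of differently numbered libraries at -0.109 to 0.073. These values do not settle whether the replicate numbers pair the samples, and the main fit treated them as unpaired. With the replicate block, 10 autophagy genes rose, 11 fell and 7585 of all genes were called, and Bnip3l passed as higher, at 0.20 (adjusted p = 0.0046). The planned count-model test was not run, because the deposited unit is log2, and limma-voom with TMM on recovered reads was used in its place. It was chosen after seeing the data and called 8 higher, 14 lower and 7461 of all genes. Few reads limit what can be said of Optn, with 3 reads in all. Map1lc3a was the tested ATG8 gene with the fewest reads, at 220 in the GFP libraries and 200 in the NUR77 libraries.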
